A study of Mus musculus with 12 samples.

Results

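Whole brains of mice were profiled by RNA sequencing, and 8 genes of the globin and erythroid group were followed across 12 libraries. The 8 genes were chosen by name from the 55385 genes of the deposited table and not by their values. They are the adult hemoglobin genes Hba-a1, Hba-a2, Hbb-bs and Hbb-bt, called blood globins here, the red cell genes Alas2 and Slc4a1, and the globins of brain and connective tissue, Ngb and Cygb. All mice were C57/BL6J males, wild type and 8 weeks old at the start. C_W mice were unstressed and received water, C_O mice were unstressed and received krill oil, MS_W mice underwent chronic unpredictable mild stress (CUMS) and received water, and MS_O mice underwent CUMS and received krill oil. Krill oil was given at 200 mg/kg/day for 5 weeks and CUMS lasted 4 weeks. Each group had 3 mice, 1 library per mouse, and libraries are named by group and mouse number. The mice were perfused with saline through the heart before the brain was taken. Blood remaining in the vessels was not measured.

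Hemoglobin of adult red cells is a tetramer of alpha chains, encoded by Hba-a1 and Hba-a2, and beta chains, encoded by Hbb-bs and Hbb-bt. Young red cells leave the marrow without a nucleus but still carry globin mRNA, so globin reads in a tissue can come from blood in its vessels as well as from its own cells. Alas2 is the erythroid form of the enzyme that starts heme synthesis, and Slc4a1 encodes band 3, the anion exchanger of the red cell membrane. Ngb (neuroglobin) binds oxygen inside neurons and is strong in the hypothalamus. Cygb (cytoglobin) is found in fibroblasts, pericytes and some neurons.

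The blood globins come in near-identical pairs, which limits how reads can be divided between them. On mm10, Hba-a1 (ENSMUSG00000069919) lies on chromosome 11 from 32283511 to 32284465, and Hba-a2 (ENSMUSG00000069917) on the same strand from 32296489 to 32297298. Hbb-bs (ENSMUSG00000052305) lies on chromosome 7 from 103826534 to 103827928, and Hbb-bt (ENSMUSG00000073940) from 103812524 to 103813996. In the GENCODE transcripts the coding sequences of Hba-a1 and Hba-a2, 426 bases each without the stop codon, differed at 1 base, C381T, counted from 1 at the start codon with the Hba-a1 base given before the position. Those of Hbb-bs and Hbb-bt, 441 bases each, also differed at 1 base, C417T, with the Hbb-bs base before the position. The transcripts shared a run of 415 identical bases within the alpha pair and 430 within the beta pair. Between an alpha and a beta gene the coding identity was 57.5% to 57.6%, and no shared run was longer than 14 bases. The 29 coding bases around each difference, all in exon 3, are printed on the gene's strand with the differing base in capitals, because they are what separates the members of each pair within the coding sequence. The 4 windows lie at chr11:32284329-32284357, chr11:32297146-32297174, chr7:103826678-103826706 and chr7:103812669-103812697, in the order printed.
Hba-a1: catgcctctctggaCaaattccttgcctc
Hba-a2: catgcctctctggaTaaattccttgcctc
Hbb-bs: gtggctggagtggcCgctgccctggctca
Hbb-bt: gtggctggagtggcTgctgccctggctca

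Alas2 (ENSMUSG00000025270) lies on chromosome X from 150547375 to 150570638, and Slc4a1 (ENSMUSG00000006574) on chromosome 11 from 102348824 to 102365280. Ngb (ENSMUSG00000021032) lies on chromosome 12 from 87097531 to 87102539, and Cygb (ENSMUSG00000020810) on chromosome 11 from 116645595 to 116654313. The coding sequence of Ngb shared 47.3% of aligned positions with that of Cygb and 48.3% to 50.3% with those of the blood globins, with no shared run in the transcripts longer than 11 bases. Exons of Cygb overlapped those of Prcd on the opposite strand over 201 of 2331 bases, and exons of Alas2 overlapped those of Apex2 over 311 of 2403 bases. The library kit kept strand, but the sources used here do not say whether reads were counted by strand. Prcd was listed at 0.497 to 1.88 FPKM and Apex2 at 0.250 to 0.903 FPKM; FPKM counts sequenced fragments relative to transcript length and library size.

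The promoters of the blood globins and Alas2 are shown because these 5 genes rose and fell together across the libraries, as described further on. RefSeq promoters (GRCm38.p6) were at hand for these 5 of the 8 genes, and the 250 bases before each start were searched on both strands. Of the motifs that GATA factors bind, Hba-a1 and Hba-a2 held TGATAA, which stood in 7.94% of 32851 promoters. The other GATA motif searched was AGATAA, found in Hbb-bs and Alas2 and in 9.99% of promoters. All 5 genes and 52.0% of promoters held CACCC, a motif of many erythroid promoters. The 4 blood globins and 33.9% of promoters held CCAAT, another common promoter motif. Of the motifs of a TATA box, Hbb-bt and Alas2 held TATAAA, as did 12.4% of promoters. The match lay at -28 on the gene's strand in Hbb-bt, but at -209 on the opposite strand in Alas2. Only exact motifs were searched, so a promoter without a match can hold another form. The variant searched was ATAAAA, held by 17.0% of promoters and, among these genes, by Alas2, where it overlapped the GATA motif. A stretch of 247 bases was identical between the Hba-a1 and Hba-a2 promoters, whereas the longest run shared by the beta pair was 14 bases. The stretches printed lie before the gene's start in the deposited table and outside annotated exons, with any base of a match in capitals. They are chr11:32296339-32296488 on the plus strand, chr7:103827929-103828011 and chr7:103813997-103814146 on the minus strand, and chrX:150547225-150547374 on the plus strand. The Hbb-bs stretch ends where an exon of another of its transcripts begins, and its AGATAA and CACCC matches lie beyond it.
Hba-a2: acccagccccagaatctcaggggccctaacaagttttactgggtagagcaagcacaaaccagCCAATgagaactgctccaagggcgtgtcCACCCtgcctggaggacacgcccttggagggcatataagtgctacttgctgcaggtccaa
Hbb-bs: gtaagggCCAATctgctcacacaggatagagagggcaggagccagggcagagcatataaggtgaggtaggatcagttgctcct
Hbb-bt: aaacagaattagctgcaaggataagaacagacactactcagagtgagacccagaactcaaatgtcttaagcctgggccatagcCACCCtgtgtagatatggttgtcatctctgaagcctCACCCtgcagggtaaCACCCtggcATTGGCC
Alas2: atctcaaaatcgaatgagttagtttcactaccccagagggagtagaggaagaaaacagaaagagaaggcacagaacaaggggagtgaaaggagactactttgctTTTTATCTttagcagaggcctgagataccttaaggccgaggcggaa

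The libraries held 50912906 to 75678721 estimated counts. Of the 12 libraries, C_O72 and MS_W95 were unlike the rest. Over the 21393 genes tested they correlated with each other at r = 0.970 and with any of the other 10 at 0.937 or less, while the other 10 correlated at 0.959 or more. Calls of the 8 genes and of the gene lists are therefore also given without them where they changed. Of the 8 genes, 7 passed the filter of a mean of 0.1 FPKM, and Slc4a1 did not.

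The blood globins had one pattern, high in all 3 C_W mice, low in all 3 MS_O mice, and split within C_O and MS_W. Hbb-bs, an adult beta globin, stood at 67.1, 72.1 and 54.8 FPKM in C_W1, C_W64 and C_W70. In C_O15, C_O30 and C_O72 it stood at 83.9, 18.7 and 33.6 FPKM. In MS_W31, MS_W75 and MS_W95 it stood at 9.57, 4.54 and 136 FPKM. The lowest and the highest library of all 12 were thus both MS_W mice, 30.0-fold apart. In MS_O13, MS_O46 and MS_O78 Hbb-bs stood at 5.92, 17.8 and 22.3 FPKM, which was below every C_W mouse, an order without overlap that 6.84% of genes tested had between MS_O and C_W. Hba-a1 followed the same course, at 52.5, 53.0 and 39.1 FPKM in C_W mice, 56.3, 16.8 and 26.7 in C_O mice, 8.06, 4.52 and 103 in MS_W mice, and 4.47, 18.1 and 15.5 in MS_O mice. Hba-a2 ranged from 2.26 FPKM in MS_W75 to 107 in MS_W95, and Hbb-bt from 1.28 to 63.7 FPKM in the same libraries. The 4 genes together had a mean sum of 193 ± 30.1 FPKM for C_W, 135 ± 92.7 for C_O, 151 ± 224 for MS_W and 45.2 ± 25.3 for MS_O (SD, n = 3). In MS_W the SD exceeded the mean, since MS_W95 alone summed to 410 FPKM and MS_W75 to 12.6 FPKM. The sum was 0.00408% to 0.137% of all FPKM of a library. In bulk brain, fewer red cells and less globin RNA per cell cannot be told apart.

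**Figure D1:**
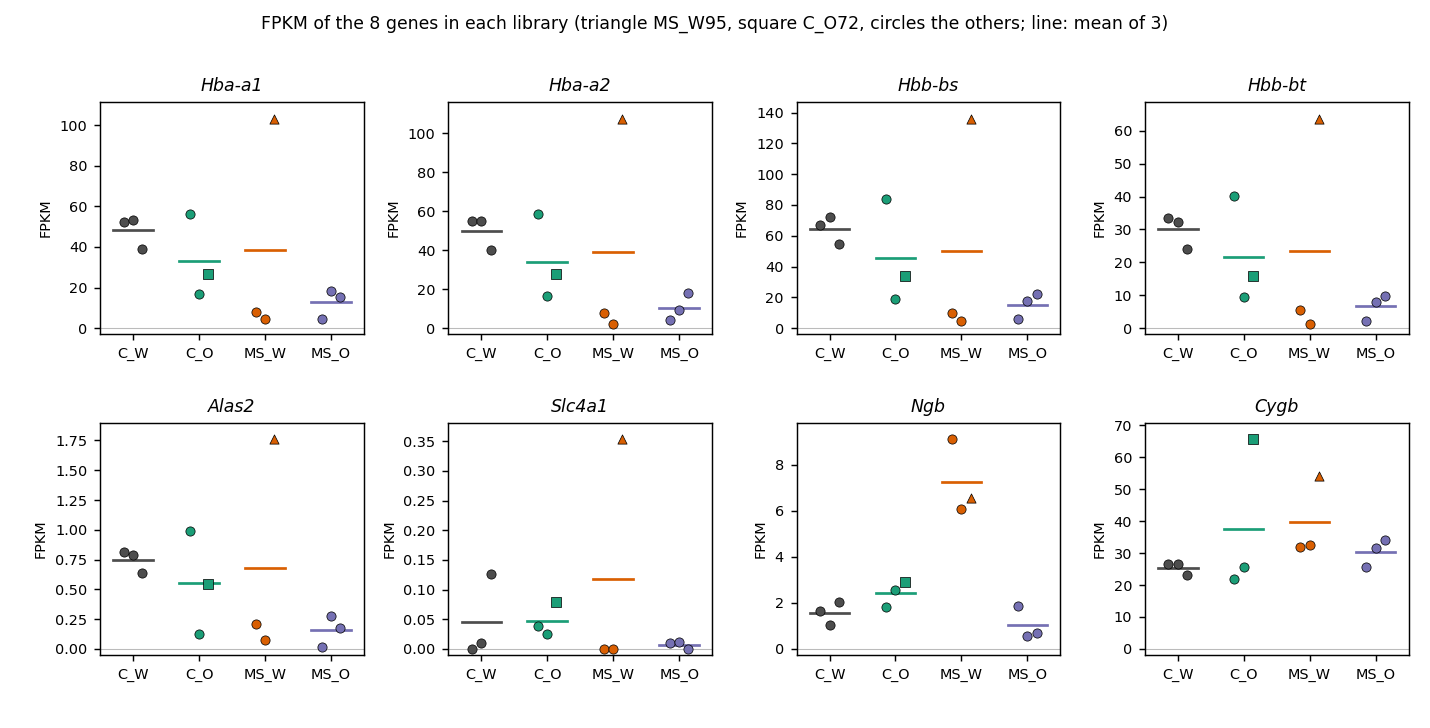
Each panel plots the FPKM of 1 gene on a linear axis, with 1 point per library and a line at the mean of the 3 libraries of a group (C_W, C_O, MS_W, MS_O). The triangle is MS_W95 and the square C_O72. The blood globins and Alas2 are highest in MS_W95 and low in the other MS_W mice, Ngb is high in all 3 MS_W mice, and Cygb is highest in C_O72 and MS_W95.

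None of the blood globins was called in any of the 4 comparisons when all 12 libraries were fitted with equal weight. A gene was called a differentially expressed gene (DEG) by the criteria of the study, an unadjusted p under 0.05 and a ratio of mean FPKM above 2 in either direction, with p from limma on log2(FPKM + 1). In MS_W vs C_W, 4.59% of the genes tested were DEGs and 1 of the 7 genes was, Ngb. The log2 fold changes of the blood globins were -1.78 to -1.49 with standard errors of 0.944 to 1.05, and the groups overlapped. In MS_O vs C_O, 3.57% of genes were DEGs and again Ngb alone of the 7. The blood globins had log2 fold changes of -1.61 to -1.34, and MS_O means were 0.305 to 0.382 times those of C_O. In C_O vs C_W, 1.76% of genes were DEGs and 0 of the 7, with 0 at an unadjusted p under 0.05 by limma, edgeR or DESeq2. In MS_O vs MS_W, 2.81% of genes were DEGs and 1 of the 7, Ngb. The comparisons share groups, so C_W, C_O, MS_W and MS_O libraries each enter more than 1 of them.

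Which globins passed depended on the weight given to MS_W95. With array weights, by which limma gives less weight to libraries far from the fit, and all 12 libraries, the log2 fold changes in MS_W vs C_W were -2.82 to -2.46, with unadjusted p of 0.00135 to 0.00253 and adjusted p of 0.0418 to 0.0578, and 3 of the 4 blood globins had an adjusted p under 0.05. They were still not DEGs, since the ratio of mean FPKM, which the weights do not enter, stayed under 2. Without MS_W95 the means of MS_W31 and MS_W75 were 7.66-fold (Hba-a1) to 9.79-fold (Hba-a2) below those of C_W. All 4 blood globins were then DEGs in MS_W vs C_W, with limma log2 fold changes of -3.22 to -2.78, unadjusted p of 0.000580 to 0.00151 and adjusted p of 0.106 to 0.167. With Alas2 and Ngb this made 6 of 7 genes called, where 4.66% of genes tested were, and the same 6 were called without C_O72 as well, where 5.75% were. The 4 blood globins and Alas2 rose and fell together across the libraries, so their calls in this paragraph are not separate results. The fit shares 1 estimate of spread among the groups, so leaving out MS_W95 also moved MS_O vs C_O, whose fold changes it does not enter. There the 4 blood globins and Ngb were called, 5 of 7, where 4.01% of genes were, with unadjusted p of 0.0187 to 0.0329 for the blood globins and adjusted p of 0.392 or more. Without both C_O72 and MS_W95, Hba-a1, Hba-a2 and Hbb-bt stayed called in MS_O vs C_O, against 4.30% of genes, and Hbb-bs stood at an unadjusted p of 0.0506. In MS_O vs MS_W the sign turned, from -0.55 to -0.47 with 12 libraries to 0.76 to 0.92 without MS_W95, and the blood globins were not DEGs in either fit (2.74% of genes were DEGs without MS_W95).

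**Figure D2:**
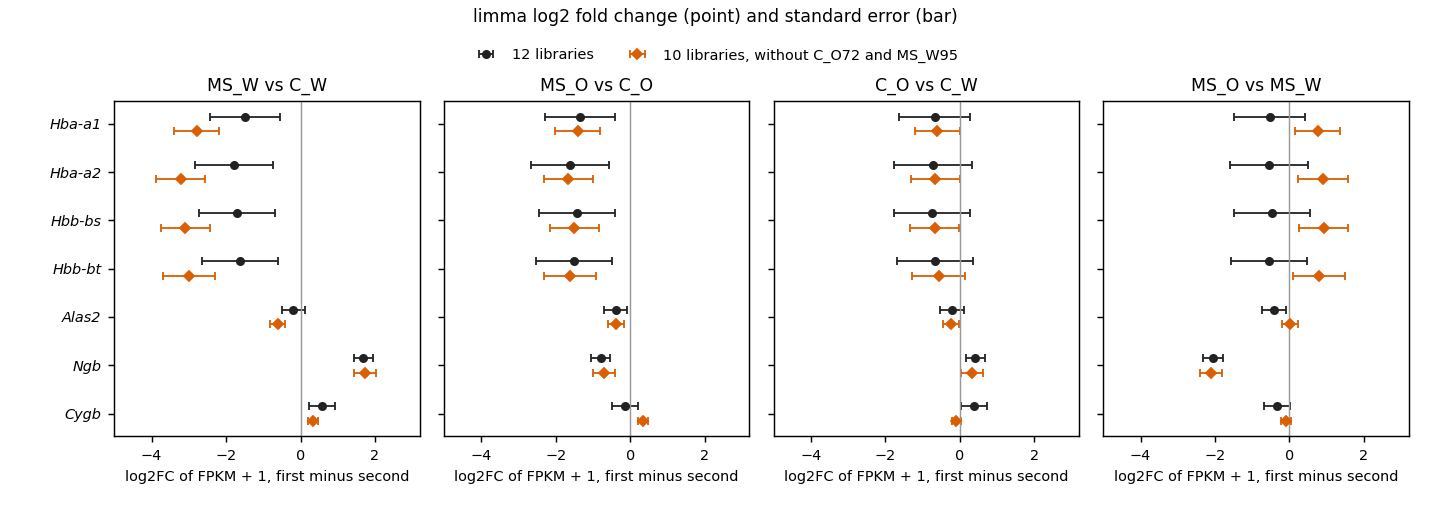
Limma log2 fold changes of FPKM + 1 (points) with standard errors (bars) for the 7 genes tested, in 4 panels for the 4 comparisons, with all 12 libraries in black and with the 10 libraries left without C_O72 and MS_W95 in orange. The blood globins lie further below 0 in MS_W vs C_W with 10 libraries and change side in MS_O vs MS_W, while the 2 estimates for Ngb lie close together in every panel.

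Neutrophil genes were also highest in MS_W95. Of the 13 genes of the white cell and platelet list, 7 were highest there (S100a8, S100a9, Ngp, Camp, Ltf and Mmp8 of neutrophils or myeloid cells and Ppbp of platelets), while the other 6, among them Pf4 of platelets and the T and B cell genes, were highest elsewhere. The list summed to 32.8 FPKM in MS_W95, 16.8 in C_W70 and 1.82 to 10.03 in the other libraries. By group the sum ran from 4.95 to 16.8 FPKM for C_W, 2.61 to 10.03 for C_O, 1.82 to 32.8 for MS_W and 2.67 to 7.92 for MS_O. S100a9, the most abundant gene of the list, was listed at 15.1 FPKM in MS_W95 and 0.494 in MS_W75, the same libraries in which the blood globins were highest and lowest. The likeness did not hold in every library. C_O15, with 239 FPKM of blood globins, had S100a9 at 1.05 FPKM and a list sum of 2.61. C_W1 and C_W64, with 208 and 212 FPKM of blood globins, had list sums of 5.31 and 4.95. Of the 8 list genes tested, 0 were DEGs in any of the 4 comparisons, and the median log2 fold change was 0.041 in MS_W vs C_W, beside 0.062 over all genes tested. With C_O72 and MS_W95 left out, 1 of the 8, Ngp, was a DEG, lower in MS_W and in C_O than in C_W. In that fit 5.75% and 1.57% of genes tested were DEGs in these comparisons. The part of white cells and blood content in the globin values was not tested.

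Alas2, the erythroid heme enzyme, moved with the blood globins at a far lower level. It stood at 0.817, 0.792 and 0.640 FPKM in C_W mice, 0.990, 0.122 and 0.541 in C_O mice, 0.208, 0.0775 and 1.76 in MS_W mice, and 0.0182, 0.277 and 0.174 in MS_O mice. These values rest on 4 estimated counts in MS_O13, the lowest library, and 295 in MS_W95, the highest. All 3 MS_O mice were below all 3 C_W mice, an order that 6.84% of genes had, and MS_W95 was again far from its group. In MS_W vs C_W the log2 fold change was -0.19 (SE 0.317), and the limma p was 0.559 before and 0.826 after adjustment. Without MS_W95 it was -0.62 (SE 0.204, unadjusted p = 0.0138, adjusted p = 0.396 by limma), and the mean of MS_W was 5.26-fold below that of C_W. In MS_O vs C_O the mean was 0.284 times that of C_O, with a log2 fold change of -0.39 (SE 0.317) and a limma p of 0.245, and the groups overlapped through C_O30. On the log2(FPKM + 1) scale changes of a gene at these levels are understated. Alas2 made up 0.109% to 0.668% of the blood globin sum, with MS_O13 lowest and MS_W31 highest.

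Slc4a1, the band 3 exchanger, was near the lower end of the table. It was listed at 0.353 FPKM in MS_W95, with 121 estimated counts, and at 0.127 FPKM in C_W70, with 53. In 4 libraries, C_W1, MS_W31, MS_W75 and MS_O78, it was listed at 0.0001 FPKM with 0 counts, and the remaining 6 lay between 0.00933 and 0.0792 FPKM. A mean of 0.0544 FPKM kept it below the filter, so it was not tested. The library highest in blood globins was thus also the highest in Slc4a1, whereas C_W1, with 208 FPKM of blood globins, had no count of it.

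Other genes of the red cell series were scarce. Of 15 genes, 14 were matched to the table and 3 passed the filter, among them Epor, the erythropoietin receptor, which was the most abundant at 0.814 to 4.34 FPKM. Of these 3, 0 were DEGs in any comparison. The summed level of the list was 4.04 to 4.30 FPKM for C_W, 1.498 to 4.41 for C_O, 2.59 to 3.69 for MS_W and 2.68 to 4.67 for MS_O, most of it Epor. Among the other globins, the embryonic genes Hba-x, Hbb-y, Hbb-bh1 and Hbb-bh2 were listed at 0.0001 FPKM in all 12 libraries. Mb, the myoglobin of muscle, was the most abundant of the remaining 4, at 0.0001 to 1.21 FPKM, and 0 of the 3 list genes tested were DEGs in any comparison.

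Ratios between the blood globins varied far less than their levels. The alpha to beta ratio, (Hba-a1 + Hba-a2) over (Hbb-bs + Hbb-bt), stayed between 0.923 and 1.18 while the sum of the 4 genes ranged 32.6-fold. Hbb-bt over Hbb-bs was 0.283 in MS_W75 and 0.366 to 0.580 in the other 11 libraries. Hba-a1 over Hba-a2 was 0.864 to 1.06 in 10 libraries, but 2.002 in MS_W75 and 1.92 in MS_O46. MS_W75 was the library with the lowest blood globins, but MS_O46 was not among the lowest 3. The sources used here do not state how reads that match both members of a pair were divided, so the split within a pair is uncertain, and because the members of a pair differ in transcript length, their FPKM sums and the alpha to beta ratio also depend on it. In estimated counts, where length does not enter, the alpha to beta ratio was 0.912 to 1.18.

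**Figure D3:**
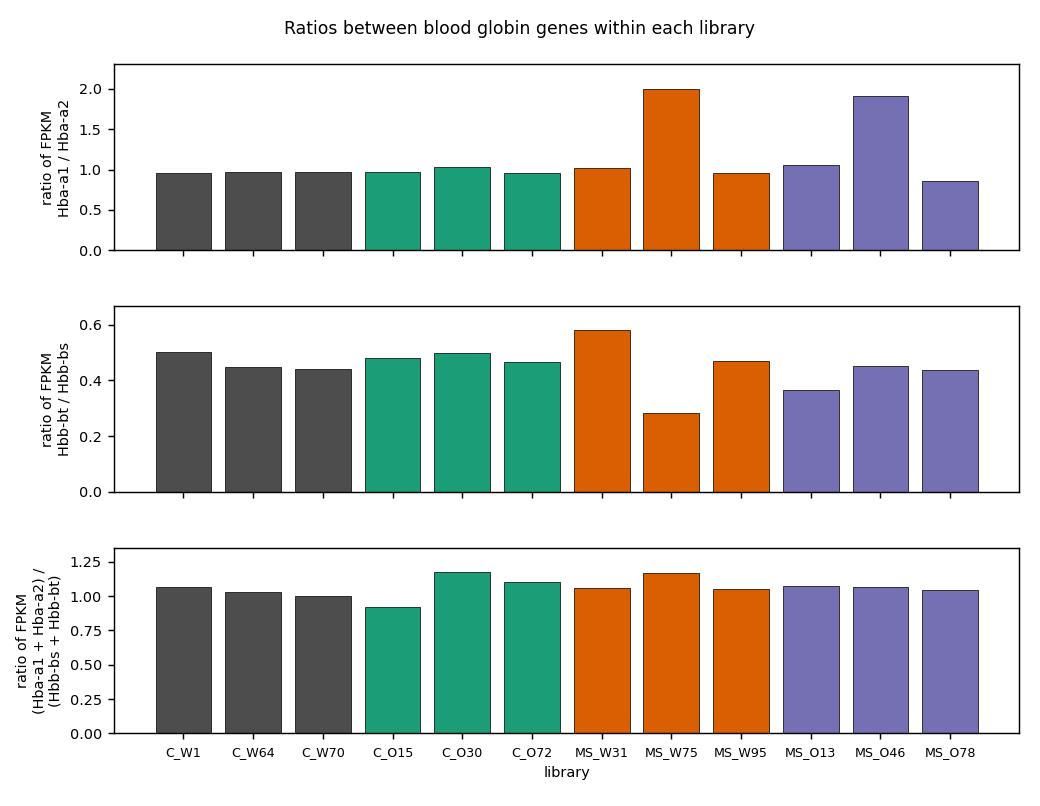
Bars from 0 give, for each of the 12 libraries coloured by group, the FPKM ratio of Hba-a1 to Hba-a2 (upper panel), of Hbb-bt to Hbb-bs (middle) and of the alpha genes to the beta genes (lower). The alpha to beta ratio is nearly level across libraries, and Hba-a1 to Hba-a2 stands at 2.002 in MS_W75 and 1.92 in MS_O46.

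Ngb, the neuronal globin, went another way and was high only in the MS_W group among the 4 groups. It stood at 9.09, 6.06 and 6.53 FPKM in MS_W31, MS_W75 and MS_W95, from 608 to 1006 estimated counts. In C_W it stood at 1.63, 1.03 and 2.05 FPKM, in C_O at 1.81, 2.57 and 2.89, and in MS_O at 1.87, 0.543 and 0.697. All 3 MS_W mice were above all 9 others, whose highest was 2.89 FPKM in C_O72. MS_W95, where the blood globins were highest, and MS_W75, where they were lowest, differed little in Ngb. The mean in MS_W was 7.23 ± 1.63 FPKM against 1.57 ± 0.514 in C_W (SD, n = 3), 4.60-fold higher. By limma the log2 fold change was 1.68 (SE 0.256, unadjusted p = 5.32e-05, adjusted p = 0.0811), and Ngb was a DEG. Groups that do not overlap, with MS_W higher, were found for 16.3% of genes tested.

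With krill oil the CUMS groups differed the other way. Ngb averaged 1.04 ± 0.727 FPKM in MS_O and 2.43 ± 0.556 in C_O (SD, n = 3), a log2 fold change of -0.79 (SE 0.256, unadjusted p = 0.0109, adjusted p = 0.479 by limma). It was a DEG, but MS_O13 at 1.87 FPKM was above C_O15 at 1.81 FPKM, and without MS_O46 the mean ratio no longer passed 2 (log2 fold change -0.62). Between the CUMS groups, MS_O was 6.97-fold below MS_W, with a log2 fold change of -2.05 (SE 0.256, unadjusted p = 9.16e-06, adjusted p = 0.0698 by limma) and no overlap, which with the first group lower held for 7.66% of genes. In C_O vs C_W the log2 fold change was 0.42 (SE 0.256, unadjusted p = 0.130, adjusted p = 0.908 by limma), and Ngb was not called. The difference with CUMS itself differed between krill oil and water, with an interaction of -2.47 on the log2 scale (SE 0.362, unadjusted p = 3.78e-05, adjusted p = 0.221 by limma). Of the 7 genes, 1 had an interaction at an unadjusted p under 0.05, against 7.23% of all genes tested. The interaction estimates of the blood globins were 0.12 to 0.28 with standard errors of 1.33 to 1.48.

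The adjusted p-values of Ngb lay above 0.05 in the limma fit of 12 libraries and moved with the method. Over 27 alternatives they ran from 0.00178 to 0.99999 in MS_W vs C_W, from 0.0744 to 0.959 in MS_O vs C_O and from 2.25e-05 to 0.412 in MS_O vs MS_W, and over 25 from 0.000325 to 0.580 for the interaction. The lowest in MS_W vs C_W, in MS_O vs MS_W and for the interaction came from DESeq2 on the estimated counts. By the DEG criteria Ngb was called in 26, 24 and 27 of the 27 alternatives in these comparisons. The log2 fold change in MS_W vs C_W was 1.52 to 3.19 over them, always positive, and in MS_O vs MS_W -2.98 to -1.88. The value of 3.19 came with library size as a covariate and had a standard error of 2.36.

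Genes of the hypothalamus moved with Ngb in part. Of 11 list genes tested, 7 were DEGs higher in MS_W than in C_W and 0 lower, against 4.59% of genes that were DEGs in either direction. The median log2 fold change was 1.27 beside 0.062 over all genes. In MS_O vs MS_W, 5 were DEGs lower and 0 higher, against 2.81% of genes, with a median of -1.16 beside -0.016. Hcrt and Nkx2-1 are in both counts and passed the filter only through MS_W, so their calls partly follow from the filter. Hcrt averaged 2.20 FPKM in MS_W and 0.0001 to 0.0366 in the other groups, and Nkx2-1 averaged 0.989 and 0.0337 to 0.142. The summed level of the list was 6.83 to 16.9 FPKM for C_W, 6.03 to 34.1 for C_O, 42.8 to 149 for MS_W and 17.6 to 77.2 for MS_O. Cartpt, a feeding peptide, was a DEG in MS_W vs C_W with a log2 fold change of 2.38 (SE 0.445, unadjusted p = 0.000285, adjusted p = 0.147 by limma). Avp (vasopressin) was listed at 32.3 and 59.3 FPKM in MS_W31 and MS_W75 but at 0.185 in MS_W95, and Oxt (oxytocin) at 20.2, 32.7 and 0.392 FPKM in the same libraries. Cartpt stood at 28.8 FPKM in MS_W95, the highest of all 12 libraries, and Gal (galanin) at 7.80 FPKM beside 7.46 and 6.47. Agrp was also highest of its group there, and Pomc lay between the other MS_W mice. Hcrt, Pmch, Trh, Sim1, Otp and Nkx2-1 were, like Avp and Oxt, lower in MS_W95 than in MS_W31 and MS_W75. In the fit without C_O72 and MS_W95, 8 of the 11 were DEGs higher in MS_W than in C_W, against 5.75% of genes in either direction. There 6 were lower in MS_O than in MS_W, against 3.29% of genes, and 2 were higher in C_O than in C_W, against 1.57%. In MS_O vs C_O 2 were higher and 1 was lower, against 4.3%. Hcrt, Nkx2-1 and Otp are among the 8 and the 6, and in this fit each passed the filter only through MS_W. Trh, the most abundant gene of the list, was a DEG in MS_O vs C_O with a log2 fold change of 3.53 (SE 0.913, unadjusted p = 0.00290), opposite in sign to Ngb. The part of the amount of hypothalamus in each sample in the Ngb values was not tested.

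Cygb was the steadiest of the 8 genes, ranging 2.99-fold over the libraries. It stood at 26.5, 26.5 and 23.1 FPKM in C_W mice, 21.9, 25.6 and 65.6 in C_O mice, 32.04, 32.7 and 54.3 in MS_W mice, and 25.7, 31.5 and 34.2 in MS_O mice. The highest values belonged to C_O72 and MS_W95, and the other 10 libraries lay between 21.9 and 34.2 FPKM. All 3 MS_W mice were above all 3 C_W mice, an order that 16.3% of genes tested had. The ratio of means was 1.56 and the log2 fold change 0.58 (SE 0.352, unadjusted p = 0.126, adjusted p = 0.566 by limma), so Cygb was not a DEG. Without C_O72 and MS_W95 the log2 fold change with CUMS was 0.34 in water (SE 0.127, unadjusted p = 0.0263, adjusted p = 0.258 by limma) and also 0.34 in krill oil (SE 0.127, unadjusted p = 0.0264, adjusted p = 0.339 by limma). With all 12 libraries the latter was -0.14, so its sign rested on C_O72. Cygb was not called in any comparison in either fit, since no ratio of means passed 2.

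Of 6 meningeal fibroblast genes, 5 were highest in C_O72, the library with most Cygb, and Col1a1 was highest in MS_W95. The 6 genes of that list summed to 52.9 FPKM in C_O72 and 7.57 to 23.6 FPKM in the other libraries, MS_W95 having 23.6. Of these 6, 4 were DEGs higher in C_O than in C_W, against 1.76% of genes tested. Among them was Igf2, a growth factor of the meninges and the most abundant of the list (log2 fold change 1.49, SE 0.495, unadjusted p = 0.0125 by limma). In MS_W vs C_W, against 4.59% of genes, 1 was a DEG, Col1a1, a collagen chain, which was higher in MS_W (log2 fold change 0.87, SE 0.176, unadjusted p = 0.000505 by limma). Without C_O72 and MS_W95, 2 of the 6 were DEGs in C_O vs C_W, Igf2 (log2 fold change 0.95, SE 0.412, unadjusted p = 0.0478 by limma) and Col1a1, against 1.57% of genes. Col1a1 was again the only DEG of the list in MS_W vs C_W (0.84, SE 0.206, unadjusted p = 0.00315 by limma), against 5.75%. The endothelial list, led by the tight junction gene Cldn5, summed to 72.5 FPKM in C_O72 and 36.1 to 54.3 in the others, with 0 of 6 genes called in any comparison. The mural cell list, with Vtn the most abundant, summed to 41.2 to 48.4 FPKM for C_W, 45.1 to 77.8 for C_O, 50.3 to 56.2 for MS_W and 46.9 to 76.1 for MS_O, and 0 of its 5 genes were called. The part of these cell types in the Cygb values was not tested.

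Across the 12 libraries, Hbb-bs rose and fell with the other blood globins and Alas2 but not with Ngb or Cygb. Pearson's r of log2(FPKM + 1) with Hbb-bs was 0.994 for Hba-a1, 0.992 for Hba-a2 and 0.995 for Hbb-bt, with Spearman's rho of 0.965, 1.00 and 0.993. For each of these the permutation p was 1e-05 for r and for rho, the smallest that 100000 permutations can give, and 2.33e-05 after Benjamini-Hochberg adjustment over the 7 pairs. The permutations shuffled all 12 libraries without regard to group. How reads were divided between Hbb-bs and Hbb-bt is uncertain, so the r of that pair may in part reflect shared reads. Hba-a1 and Hba-a2 share no run longer than 14 bases with Hbb-bs. Alas2 followed at r = 0.932 and rho = 0.930 (permutation p = 3e-05 and 7e-05, adjusted 5.25e-05 and 0.000122). Slc4a1 reached r = 0.578 and rho = 0.566 (permutation p = 0.0305 and 0.0594, adjusted 0.0427 and 0.0832). Ngb had r = -0.19 and rho = -0.15 (permutation p = 0.547 and 0.652, adjusted 0.639 and 0.751), and Cygb r = 0.095 and rho = -0.10 (permutation p = 0.770 and 0.751, adjusted 0.770 and 0.751). Without MS_W75 and MS_W95, the libraries farthest from the median of Hbb-bs, r was 0.988 to 0.994 for the blood globins and 0.944 for Alas2. It dropped to 0.351 for Slc4a1, whose relation rests on those 2 libraries, and was -0.32 for Ngb and -0.17 for Cygb. Because the MS_W mice stand apart in Ngb, r was also taken over the 9 libraries outside MS_W, where it was 0.054. Without C_O72 and MS_W95, which were unlike the rest, r for Cygb was -0.60 (permutation test, adjusted p = 0.0976).

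**Figure D4:**
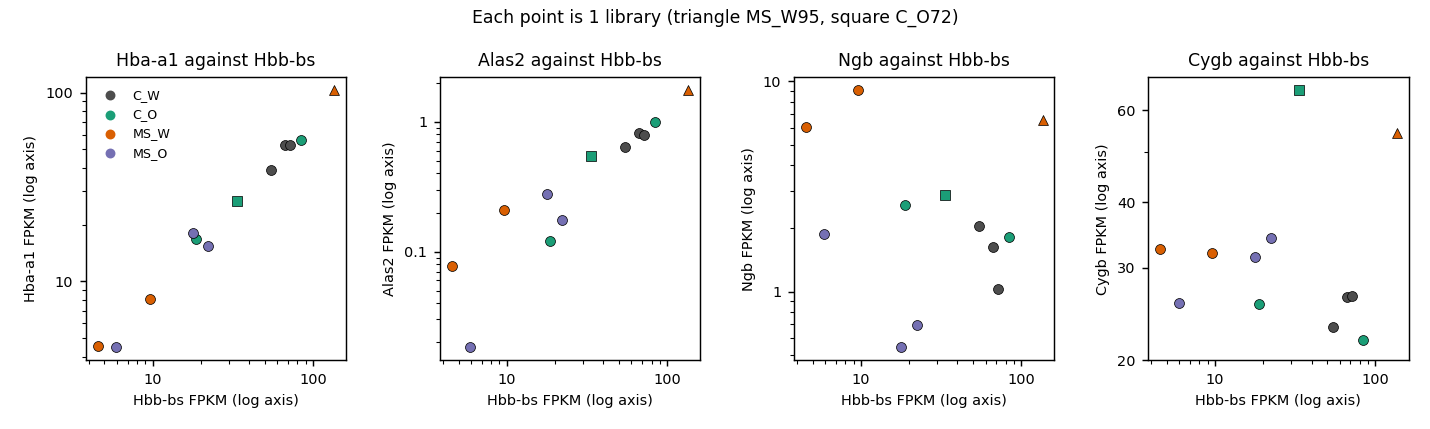
Hba-a1, Alas2, Ngb and Cygb (vertical, FPKM on a log axis) against Hbb-bs (horizontal, FPKM on a log axis), 1 point per library coloured by group, with MS_W95 as a triangle and C_O72 as a square. Hba-a1 and Alas2 climb with Hbb-bs (r = 0.994 and 0.932), Ngb sets the MS_W mice above the rest at low and high Hbb-bs alike, and Cygb is highest in C_O72 and MS_W95.

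The genes most like each globin were looked up among 13621 genes with a mean of 1 FPKM or more, by Pearson's r over the same 12 libraries, given as a description since the points share their libraries. For Hbb-bs the first 3 were Hbb-bt, Hba-a1 and Hba-a2, and then came Mtus2 (r = 0.913) and Ulk1 (r = 0.909), after a gap. In all, 5 genes exceeded r = 0.9 with Hbb-bs. Mtus2 was also the most like Alas2 (r = 0.945), before Hba-a1, Ulk1 (r = 0.935), Hbb-bs and Setd7 (r = 0.927). These were shallow patterns beside the globins, Mtus2 ranging from 3.44 FPKM in MS_W75 to 6.89 in MS_W95. For Ngb the most alike were Zcchc18 (r = 0.949), Rab9b (0.929), Ube4b (0.925), Peg10 (0.922) and Zdbf2 (0.916). Peg10, an imprinted gene of retroviral origin, stood at 12.4, 13.8 and 9.52 FPKM in MS_W and at 1.93 to 7.20 FPKM elsewhere, the highest of these in C_O72. For Cygb they were Optn (r = 0.990), Hadha (0.984), Nqo1 (0.981), Hsdl2 (0.979) and Aldh9a1 (0.979). Cygb had 443 genes above r = 0.9, against 10 for Ngb, 12 for Alas2 and 5 for Hbb-bs. Each of the 5 genes named for Cygb was highest in C_O72 and next highest in MS_W95, as Optn was with 10.9 and 9.42 FPKM against 3.74 to 5.55 in the other 10.

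The genes that make heme in every cell gave no calls. Of the 8 other genes of heme synthesis, all 8 were tested and 0 were DEGs in any of the 4 comparisons, nor was Alas2 with 12 libraries. Urod (uroporphyrinogen decarboxylase) was the most abundant, with log2 fold changes of -0.17 to 0.18. Alas1, the form of the starting enzyme used outside the erythroid line, stood at 5.98 to 9.03 FPKM in all 12 libraries, a narrow range beside that of Alas2. The median log2 fold change of the list was 0.0076 in MS_W vs C_W and -0.12 in MS_O vs C_O, beside 0.062 and 0.033 over all genes tested. The summed level was 47.7 to 50.6 FPKM for C_W, 48.3 to 61.7 for C_O, 48.9 to 58.4 for MS_W and 49.3 to 51.6 for MS_O.

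Of 9 genes that handle heme and free hemoglobin, 1 was a DEG in 1 comparison, C_O vs C_W, where 1.76% of genes tested were. Flvcr1, a heme exporter, was higher in C_O than in C_W (log2 fold change 0.73, SE 0.298, unadjusted p = 0.0343, adjusted p = 0.908 by limma), with 2.25, 0.993 and 3.74 FPKM in C_O against 0.822, 0.937 and 0.923 in C_W. Its groups did not overlap, as in 4.08% of genes with C_O higher, and C_O72 gave the highest value. When C_O72 and MS_W95 were left out it was not called (log2 fold change 0.43, SE 0.280, unadjusted p = 0.164 by limma), where 1.57% of genes were DEGs in C_O vs C_W. In that fit Hp, which binds free hemoglobin, was a DEG lower and Cd163, a receptor for the complex of both, a DEG higher in MS_W than in C_W, where 5.75% of genes were DEGs. Slc48a1, a heme transporter and the most abundant of the list, had log2 fold changes of -0.24 to 0.068. Hmox1, the inducible heme oxygenase, stood at 2.92 to 5.45 FPKM, highest in C_O72, and Hp (haptoglobin), with all 12 libraries, at 0.0001 to 0.738 FPKM, highest in MS_W95.

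Genes that respond to low oxygen gave few calls. Of 13 list genes tested, 1 was a DEG lower in MS_W vs C_W, where 4.59% of genes were DEGs. It was Hif3a, a subunit of the hypoxia-inducible factors, with a log2 fold change of -0.66 (SE 0.138, unadjusted p = 0.000697, adjusted p = 0.201 by limma). Egln3, a prolyl hydroxylase of those factors, was a DEG higher in MS_O vs C_O (log2 fold change 0.83, SE 0.343, unadjusted p = 0.0362) and in MS_O vs MS_W (0.96, SE 0.343, unadjusted p = 0.0183). Its values in MS_O were 5.44, 13.6 and 13.9 FPKM, so MS_O13 did not share the higher level. In the fit of 10 libraries without C_O72 and MS_W95 Hif3a stayed called, Egln3 did not (unadjusted p = 0.0660 and 0.0885 by limma), and Adm, a vasodilator peptide, was called lower in MS_W vs C_W and higher in MS_O vs MS_W. Ldha, the most abundant of the list, had log2 fold changes of -0.30 to 0.19 and was not called. Among the 8 genes marking brain cells, Snap25 of neurons was the most abundant, and Cx3cr1 of microglia was the only DEG in the 4 comparisons, higher in C_O than in C_W (log2 fold change 1.33, SE 0.483, unadjusted p = 0.0201 by limma) and lower in MS_O than in C_O (-1.09, SE 0.483, unadjusted p = 0.0463). In the same fit of 10 libraries neither was called (unadjusted p = 0.0506 and 0.0987 by limma). With 12 libraries 1.76% of genes tested were DEGs in C_O vs C_W and 3.57% in MS_O vs C_O.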

How the data were processed

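Poly(A) RNA of 12 whole brains was sequenced on stranded libraries. Per the labels and methods, the authors trimmed reads with cutadapt 1.9, aligned them to mm10 with HISAT2 2.0.4, and assembled and quantified transcripts with StringTie 1.3.4d and Ballgown. They deposited FPKM and estimated counts per gene. Comparison columns of the authors (fold changes, p-values) were not used. Genes averaging 0.1 FPKM or more over the 12 libraries were tested with limma 3.58.1 (trend) on log2(FPKM + 1), in 1 fit of the 4 groups, with Benjamini-Hochberg adjustment over 21393 genes. Count models (edgeR 4.0.16, DESeq2 1.42.0, R 4.3.3) on the estimated counts, rounded to whole numbers for DESeq2, were alternatives. A fold change on the log2(FPKM + 1) scale understates that of low genes. The estimated counts summed to 50912906 to 75678721 per library. In every library they exceeded the raw reads that the study lists, so they are not the sequencing depth. The p-values of the count models rest on them. The fits were tested on simulated data. The 8 genes, the gene lists and the tests were chosen with earlier results of these data known. Named were all 8 genes, from each list up to 4 DEGs by smallest unadjusted p and the most abundant gene, and the 5 genes most correlated with Hbb-bs, Alas2, Ngb and Cygb. Other genes named for their values were added after these were seen. They are Adm, Alas1, Hmox1, Hp, Cd163, the white cell and platelet genes, the embryonic globins, and Gal and the other hypothalamus genes outside that rule. The values of 1 gene of the red cell list are left out. The value of r over the 9 libraries outside MS_W, the calls of the gene lists without C_O72 and MS_W95, and the ratio of estimated counts were also added after seeing the data. Sequences are from RefSeq (GRCm38.p6) and GENCODE M21 (GRCm38). Python 3.11.15, pandas 2.3.3, Biopython 1.88 and matplotlib 3.10.9 were used.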

Additional observations from a re-analysis of the deposited data

Results flagged for a closer look

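The difference in Ngb with CUMS differed between water and krill oil, with an interaction of -2.47 on the log2(FPKM + 1) scale (SE 0.362, unadjusted p = 3.78e-05, adjusted p = 0.221 by limma, fitted across all genes). Ngb was higher in MS_W than in C_W in 3 of 3 mice and lower in MS_O than the lowest C_O mouse in 2 of 3 mice. The result was listed because the interaction term passed an unadjusted p of 0.05, which 7.23% of the genes tested did.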

How the results depend on the processing

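No paired analysis was possible because the groups share no mouse numbers. The fold changes of Ngb kept their sign under all alternatives. Of the values of single genes, 478 kept their sign and call under the other settings and 380 did when 1 library was left out, 18 uncalled values became called, and 5 lost the call (values of Ngb and the correlation of Slc4a1 with Hbb-bs). With library size as a covariate, 0 of the 7 genes were called in MS_W vs C_W and 0 in MS_O vs C_O. That fit was imprecise in MS_W vs C_W, where Ngb stood at 3.19 with a standard error of 2.36. With the fold taken from log2(FPKM + 1), 0 were called in MS_O vs C_O, and with only the 2 groups compared, 2 were (Ngb and Hba-a2). Without C_O72 and MS_W95, 6 were called in MS_W vs C_W and 4 in MS_O vs C_O. Leaving out 1 library at a time gave 1 to 6 in MS_W vs C_W (6 without MS_W95) and 0 to 5 in MS_O vs C_O (5 without MS_W95, 0 without MS_O46).

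All sign changes were of genes not called with 12 libraries. In MS_O vs MS_W the log2 fold changes of Hba-a1, Hba-a2, Hbb-bs and Hbb-bt became 0.77, 0.90, 0.93 and 0.78 with array weights and 0.76, 0.90, 0.92 and 0.80 without C_O72 and MS_W95, where Alas2 became 0.013. With library size as a covariate Hba-a1 and Hbb-bs became 0.064 and 0.067 there (SE 1.72 and 1.87). In MS_W vs C_W with that covariate Hba-a2, Hbb-bt and Cygb became 0.41, 0.69 and -0.25 (SE 16.2, 15.4 and 2.66). Standard errors this far above the values leave their signs undetermined. Cygb became -0.11 in C_O vs C_W (SE 0.101) with the same covariate. The interactions of Hba-a1, Hba-a2, Hbb-bs and Hbb-bt became -1.01, -1.28, -1.14 and -1.31 by edgeR and -1.02, -1.30, -1.15 and -1.32 by DESeq2. That of Alas2 became 0.17 with array weights and 0.24 without C_O72 and MS_W95. Cygb in MS_O vs C_O became 0.33 and 0.34 under the same settings, and without C_O72 and MS_W95 Cygb became -0.093 in C_O vs C_W and its r with Hbb-bs -0.60. The cause was not tested.

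Leaving out 1 library at a time, in MS_O vs MS_W Hba-a1 ran from -1.36 to 0.76, Hba-a2 from -1.62 to 0.90, Hbb-bs from -1.40 to 0.92, Hbb-bt from -1.61 to 0.80 and Alas2 from -0.66 to 0.013. Interactions ran from -0.68 to 1.44 (Hba-a1), -0.92 to 1.61 (Hba-a2), -0.64 to 1.67 (Hbb-bs), -0.94 to 1.47 (Hbb-bt) and -0.45 to 0.23 (Alas2). Alas2 ran from -0.62 to 0.062 in MS_W vs C_W and from -0.41 to 0.0027 in C_O vs C_W, and Cygb from -0.43 to 0.34 in MS_O vs C_O and from -0.093 to 0.68 in C_O vs C_W. Alas2 rested on 4 to 295 estimated counts and Slc4a1 on 0 to 121, so low counts limit both.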
